A study of Mus musculus with 4 samples.

Results

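The genes described here belong to the eicosanoid pathway, which turns arachidonic acid into prostaglandins and leukotrienes. They are PTGS1, PTGS2, PTGES, HPGD, PTGER2, PTGER4, ALOX5, ALOX5AP and LTA4H, 9 of the 36601 genes listed in both reactions, and each was found by its symbol in a single row. Human CD45+ cells had been sorted from MDA-MB-231 tumors, a human breast cancer line grown in the mammary fat pad of MISTRG mice, and their 3′ transcripts were counted as unique molecular identifiers (UMIs) in 2 droplet reactions. MISTRG mice carry human cytokine genes in place of the mouse ones, among them those for M-CSF, GM-CSF and IL-3, and had been engrafted as pups after irradiation with CD34+ cells of human fetal liver. All 14 mice bore the tumor. Of these, 7 received the drug maraviroc in the drinking water and 7 stayed untreated. A hashtag antibody, B0251 to B0257 in each reaction, marked the cells of each mouse and its name gave the treatment, with 4 untreated and 3 maraviroc mice in reaction 1 and 3 untreated and 4 maraviroc mice in reaction 2. The blood cells are human and the host is a mouse, and the transcripts of host cells were not analysed here.

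Arachidonic acid released from membranes has 2 main fates. The cyclooxygenases PTGS1 (COX-1, made steadily in many cells) and PTGS2 (COX-2, induced by inflammatory signals) convert it to prostaglandin H2, from which PTGES makes prostaglandin E2. HPGD inactivates prostaglandin E2, and PTGER2 and PTGER4 (EP2 and EP4) are the receptors that raise cyclic AMP when it binds. In the leukotriene branch, ALOX5 with its membrane partner ALOX5AP (FLAP) makes leukotriene A4, which LTA4H turns into the neutrophil attractant leukotriene B4 and LTC4S into leukotriene C4, a product for which mast cells are well known.

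Barcodes with 601 to 6000 detected genes and fewer than 1 in 8 UMIs mitochondrial were kept, 27645 of 29120 in reaction 1 (median 2752 UMIs) and 10161 of 13582 in reaction 2 (median 10742 UMIs). They were sorted into classes by summed marker UMIs, with none of the 9 genes among the markers, and macrophages also by state, from marker lists led by IL1A and CCL20, SLC2A1 (GLUT1), MT1G, CXCL10, LYVE1 and genes of the cell cycle. Of the barcodes, 51.2% and 17.8% in reactions 1 and 2 passed no gate. Every marker on the lists for T, NK, B, mast, plasmacytoid dendritic (pDC), conventional dendritic (cDC1 and cDC2), LAMP3-type mature dendritic, monocyte, macrophage and tumor cells was detected in the class it defined. Most of these markers also set the gates, so their detection there is no independent check of the classes. The tumor gate still took 200 and 70 barcodes although the sort was for CD45+ cells. The reactions shared 105 kept barcodes. Values per mouse come from the 19871 barcodes with a single hashtag and from mice with at least 10 cells of the class (690 to 3030 cells a mouse in all), which leaves 14 mice for monocytes, macrophages and NK cells, 13 for T cells, 8 for mast cells, 7 for B cells, 6 for cDC2 and tumor cells and 5 for pDC. Levels are given in CPM, the UMIs of the gene per 1000000 UMIs of the class. Adjusted p-values are from edgeR's quasi-likelihood test on counts summed per mouse and class, with Benjamini-Hochberg adjustment over all genes tested. The SE of a fold change was derived from that test, as its absolute value divided by the square root of the F statistic. Neighbours in the order of means are said to differ beyond the spread where the mean paired difference exceeded its SD. That rule is a description and no test, and a consistent difference can fall short of it. Neighbours in a sorted order are also close by construction. A lower level in a class can be fewer cells with the transcript or fewer transcripts per cell, and sums per mouse do not tell these apart.

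**Figure D1:**
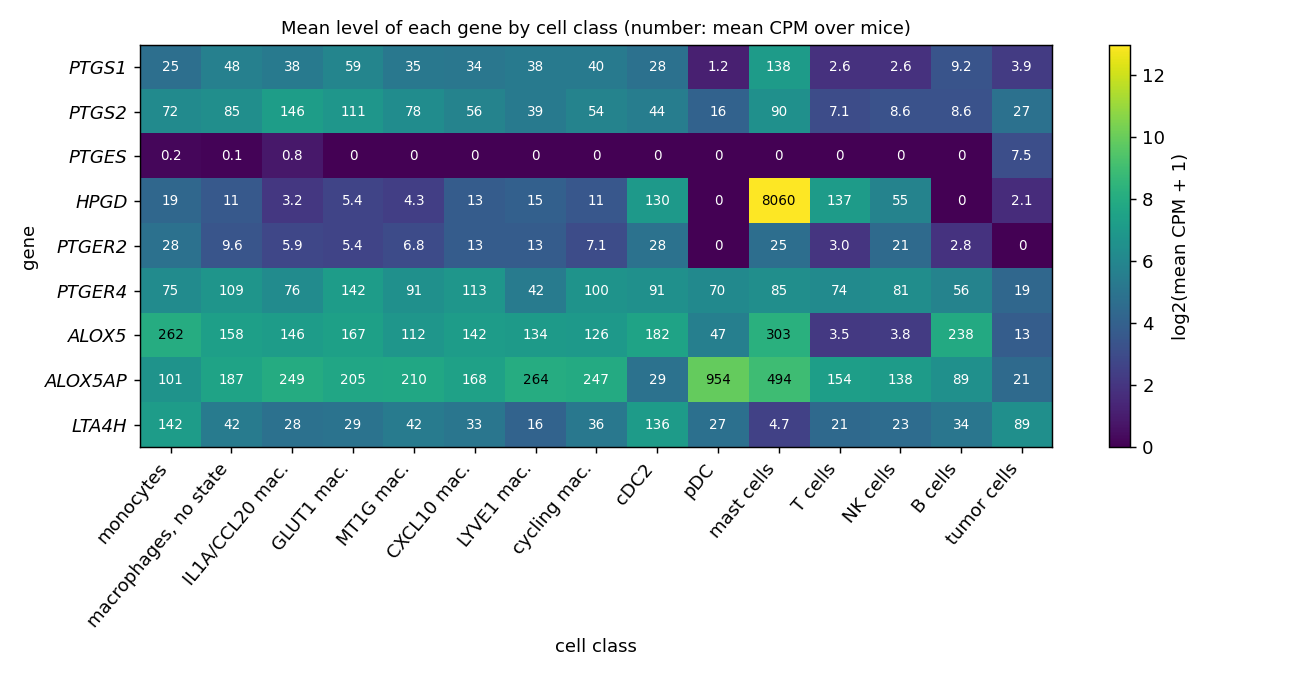
Mean level of the 9 genes (rows) in each gated class (columns) over mice, as log2 of the mean CPM plus 1. HPGD stood at 8060 CPM in mast cells and at 0 in B cells and pDC, and ALOX5AP at 954 in pDC.

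PTGS1 was a transcript of mast cells, of the monocyte and macrophage line and of cDC2. Its mean was 138 ± 70.9 CPM in mast cells (SD, n = 8 mice) and 45.7 ± 8.08 in macrophages (n = 14), against 25.5 ± 5.17 in monocytes (n = 14). The cDC2 stood at 27.8 ± 10.6 (n = 6) and did not pass against monocytes (log2 fold change 0.17, SE 0.25, adjusted p = 0.716). PTGS1 was low in T and NK cells, at 2.62 ± 2.64 in T cells (n = 13) and 2.56 ± 1.86 in NK cells (n = 14). Of all classes, mast cells held the highest mean, but the next in order, the GLUT1 macrophages, differed from them by less than the spread of the paired differences (80.0 ± 93.1 CPM, higher in 6 of 7 mice). The 14 monocyte samples ran from 17.2 over a median of 25.4 to 35.3 CPM, and each lay below the macrophages of the same mouse. The log2 fold change of monocytes against macrophages was -0.69 (SE 0.08, adjusted p = 1.49e-07). The 8 mast cell samples ran from 61.5 over 114 to 291, and the lowest lay above 52.4, the highest value of the summed monocytes and macrophages of the same mice (log2 fold change 1.40, SE 0.27, adjusted p = 2.00e-05). In pDC, only 2 PTGS1 UMIs were counted over 5 mice, and in tumor cells 2 over 6 mice.

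PTGS2 averaged 72.2 ± 25.2 CPM in monocytes and 83.1 ± 24.6 in macrophages (SD, n = 14 mice each). The monocyte samples ran from 24.8 over a median of 75.6 to 115 CPM and the macrophage samples from 56.8 over 76.3 to 152, so the ranges overlapped widely (log2 fold change -0.13, SE 0.10, adjusted p = 0.277). Without the filter on low counts the same difference passed (-0.20, adjusted p = 0.0171). Lymphocytes carried little of it, 7.11 ± 14.8 in T cells (n = 13), where the mean rested on a single untreated mouse at 55.5 and the median was 2.09. T cells were lower than monocytes and macrophages in all 13 mice (log2 fold change -5.25, SE 0.21, adjusted p = 1.13e-15) and tumor cells in all 6 (-2.14, SE 0.39, adjusted p = 5.41e-07). In mast cells PTGS2 varied from 0 to 238 CPM between mice, and its difference from monocytes and macrophages did not pass the test (0.16, SE 0.32, adjusted p = 0.737). The cDC2 did not pass against monocytes (-0.51, SE 0.26, adjusted p = 0.188) except without B0255 of reaction 2 (adjusted p = 0.0226). NK cells passed against T cells with a log2 fold change of 1.28 (SE 0.50, adjusted p = 0.0450), a call that was lost on leaving out B0251, B0253, B0254 or B0257 of reaction 1 or any mouse of reaction 2 except B0253 (adjusted p up to 0.175).

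**Figure D2:**
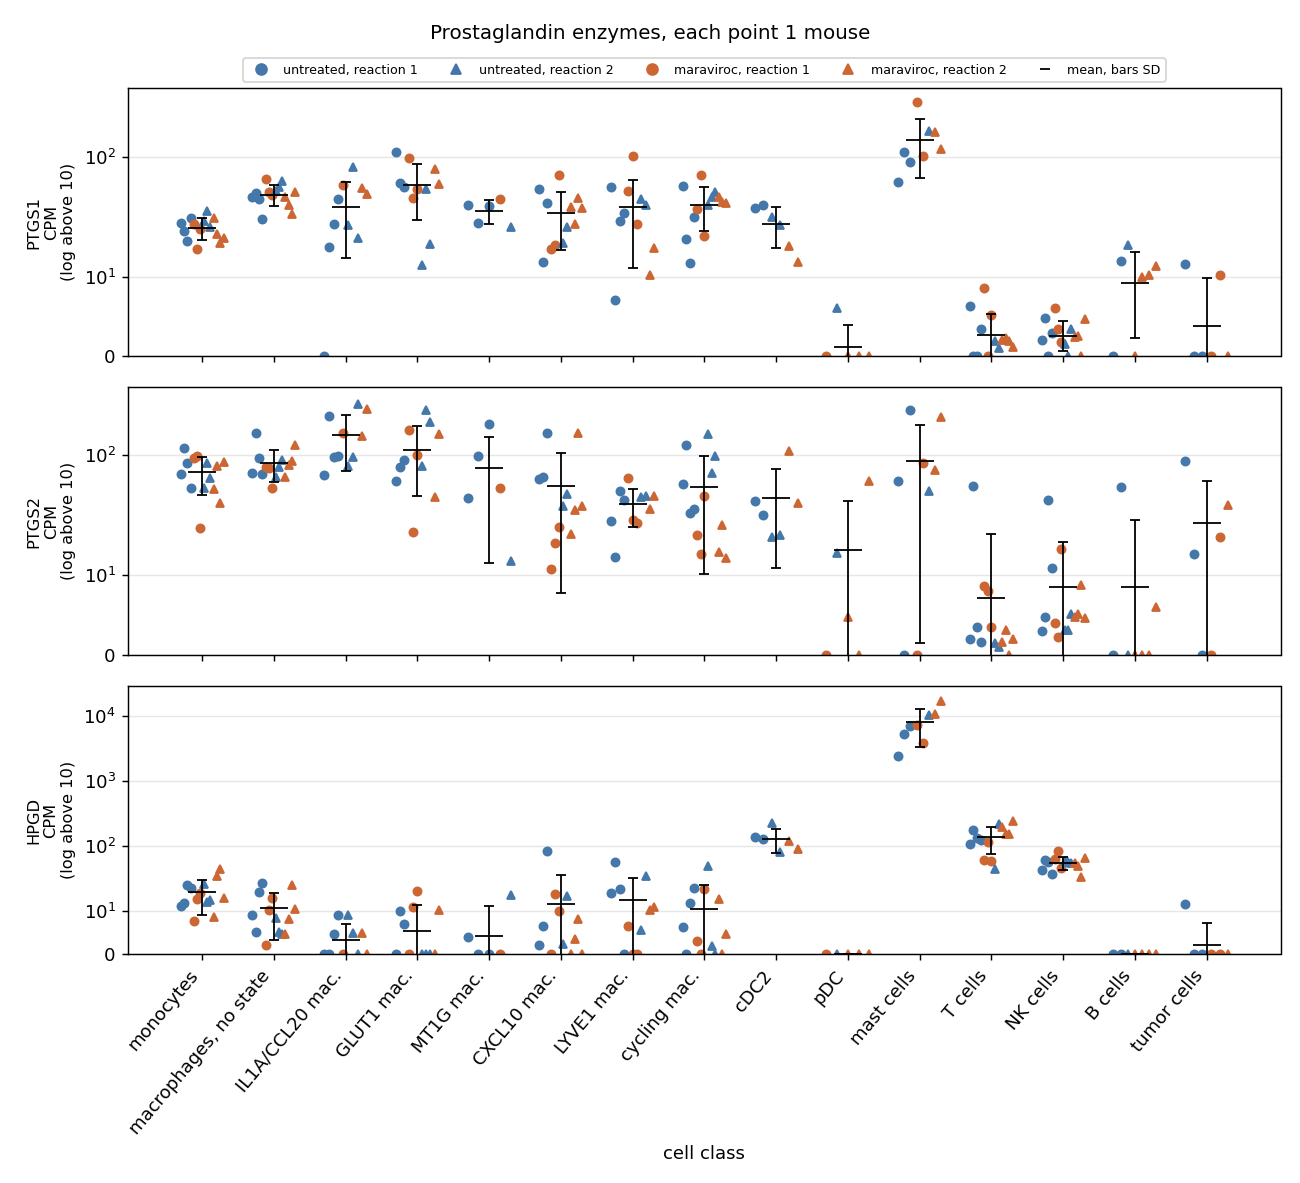
Levels of PTGS1, PTGS2 and HPGD in CPM by class, on an axis that is logarithmic above 10. Each point is a mouse with at least 10 cells of the class, coloured by treatment and shaped by reaction, with the mean and SD. The mast cell points of HPGD lie between 2461 and 17238 and those of B cells and pDC at 0.

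Within macrophages, PTGS2 passed the test in 4 of 6 states. Its mean was highest in macrophages with IL1A and CCL20 and lowest in LYVE1 macrophages. The IL1A/CCL20 gate and the next in order, GLUT1 macrophages, did not differ beyond the spread (paired difference 6.61 ± 71.1 CPM, higher in 5 of 8 mice). Macrophages of the IL1A/CCL20 gate ran from 68.0 over a median of 122 to 268 CPM in 10 mice, against a median of 81.7 in macrophages that passed no state gate, and 9 of the 10 mice were higher, with overlapping ranges (log2 fold change 0.73, SE 0.15, adjusted p = 0.00172). With reaction 1 alone the fold change was 0.53 (adjusted p = 0.283) and with reaction 2 alone 0.93 (adjusted p = 0.00422). The platelet marker PPBP moved with this gate, at 2295 and 3029 CPM in reactions 1 and 2 against 111 and 81.4 in macrophages of no state, while GP9 was at 0, PF4 at 5.61 and 3.92 and ITGA2B at 1.12 and 0; their part in the result was not tested.

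LYVE1 macrophages, a state with genes of resident tissue macrophages, stood at the other end. PTGS2 ran from 14.1 over 42.4 to 64.6 CPM there against a median of 79.8 in macrophages of no state, and all 11 mice were lower (log2 fold change -1.15, SE 0.19, adjusted p = 3.64e-05). PTGER4 fell in the same cells, with a median of 34.5 against 96.9 CPM and all 11 mice lower (-1.40, SE 0.22, adjusted p = 1.19e-05). LTA4H was lower in all 11 as well, at a median of 17.0 against 39.9 (-1.24, SE 0.26, adjusted p = 0.000679), but not with reaction 2 alone (adjusted p = 0.185). PTGS1 gave -0.63 (SE 0.23, adjusted p = 0.0614) and passed without B0251, B0254 or B0256 of reaction 1. Cycling macrophages were lower in PTGS2 (-0.71, SE 0.21, adjusted p = 0.00951; 11 of 13 mice), in ALOX5 (-0.42, SE 0.11, adjusted p = 0.00362; 10 of 13) and in PTGS1 (-0.43, SE 0.14, adjusted p = 0.0192; 8 of 13), and slightly higher in ALOX5AP (0.26, SE 0.08, adjusted p = 0.0160; higher in 12 of 13 mice). The PTGS1 call was lost without B0252, B0255 or B0257 of reaction 1 (adjusted p up to 0.0593). None of these 4 calls held in both reactions alone. PTGS2 was lost with reaction 2 (adjusted p = 0.267), ALOX5 and ALOX5AP with reaction 1 (adjusted p = 0.221 and 0.243), and PTGS1 with either (adjusted p = 0.0698 and 0.266).

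GLUT1 macrophages, which carry genes of low oxygen, passed for PTGS2 with a log2 fold change of 0.57 (SE 0.20, adjusted p = 0.0321, higher in 7 of 11 mice) and for PTGER4 with 0.47 (SE 0.18, adjusted p = 0.0491, higher in 8 of 11 mice). Their values overlapped those of macrophages of no state for both genes, at 22.9 to 237 CPM for PTGS2 and 36.6 to 290 for PTGER4. Either call was lost on leaving out B0254, B0255 or B0257 of reaction 1 or B0251, B0252, B0253 or B0257 of reaction 2, and the PTGER4 call also without B0253 or B0256 of reaction 1 (adjusted p up to 0.236 for PTGS2 and 0.191 for PTGER4). The ALOX5AP call in the IL1A/CCL20 gate (0.42, SE 0.13, adjusted p = 0.0498) was as fragile, being lost without any of B0251 to B0255 of reaction 1 or without B0251, B0253 or B0257 of reaction 2 (adjusted p up to 0.208).

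Of the 8 members that could be tested, all but PTGES, 3 passed in LYVE1 macrophages where 17% of 11171 genes passed, 4 in cycling macrophages where 31.5% of 11425 passed, and 2 in each of the GLUT1 and IL1A/CCL20 gates where 21.6% of 10835 and 4.79% of 10865 passed. None passed in MT1G macrophages (5 mice, 0.647% of 10202 genes called, 0 members at an unadjusted p under 0.05) or in CXCL10 macrophages (12 mice, 13.6% of 10351 called, PTGS2 alone at an unadjusted p under 0.05 with a log2 fold change of -0.51, SE 0.22), and DESeq2 called 0 members in both. The PTGS2 value of the CXCL10 gate passed without B0254 of reaction 1 or B0256 of reaction 2 (adjusted p down to 0.0264).

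**Figure D3:**
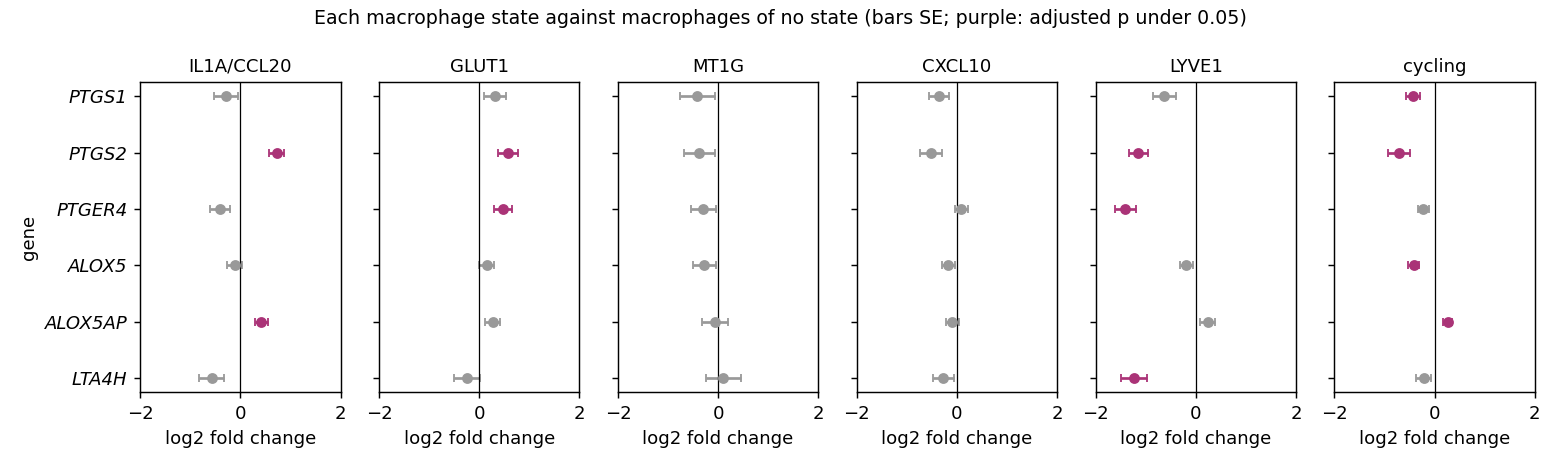
Log2 fold change, with the standard error derived from the test, of PTGS1, PTGS2, PTGER4, ALOX5, ALOX5AP and LTA4H in each macrophage state against macrophages of no state. HPGD and PTGER2 were also tested but are not drawn. The PTGS2 values run from 0.73 in the IL1A/CCL20 gate to -1.15 in the LYVE1 gate.

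PTGES, the inducible synthase that makes prostaglandin E2, was hardly detected in these cells. It had 61 UMIs in reaction 1 and 17 in reaction 2 over all kept barcodes. The tumor gate held 10 and 9 of them, a level of 11.6 CPM (95% exact Poisson interval 5.55 to 21.3) and 10.3 (4.70 to 19.5), intervals that cover counting error only. Monocytes and macrophages together were at 0.302 and 0.0791 CPM. In the singlets of mice with enough cells, barcodes that passed no gate held 14 PTGES UMIs, all myeloid cells 9 and tumor cells 3. Of the 6 mice with tumor cells, 4 were at 0, so the transcript cannot be assigned to tumor cells alone. With so few UMIs PTGES passed the filter on low counts in no comparison and was not tested.

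HPGD had the widest range of the 9 genes. It was a leading transcript of mast cells, was present at far lower levels in T cells, cDC2 and NK cells, and had no UMI in the singlets of B cells or pDC. The 8 mast cell samples ran from 2461 over a median of 7170 to 17238 CPM, a mean of 8060 ± 4702, against 13.9 ± 6.73 in monocytes and macrophages of the same mice. Every mast cell sample lay above every sample of every other class, and the log2 fold change was 8.74 (SE 0.29, adjusted p = 3.82e-43). The 5 mast cell samples of reaction 1 ran from 2461 to 7281 and the 3 of reaction 2 from 10445 to 17238, so they did not overlap. The mast gate of reaction 1 also held more UMIs of other cells, with monocyte markers at 2285 CPM, macrophage markers at 2684 and NK markers at 1974, against 1163, 656 and 93.9 in reaction 2, and its median depth was 2118 UMIs against 6002; their part in the difference was not tested. Each cell with at least 2000 UMIs was thinned to 2000, and cells below that depth were left out, here and below. After thinning, 94.2% and 96.3% of mast cells had an HPGD UMI (92.7% and 97.7% of all mast cells before thinning). In macrophages of no state, whose median depths were 3408 and 13250 UMIs, the thinned shares were 3.39% and 1.06%.

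Among lymphocytes HPGD belonged to T cells and, at a lower level, to NK cells. T cells ran from 43.5 over a median of 131 to 240 CPM in 13 mice, above every value of monocytes and macrophages, of which the highest was 34.1 (log2 fold change 2.82, SE 0.27, adjusted p = 4.94e-09). NK cells ran from 32.9 over 56.3 to 82.5 and were lower than T cells in 11 of 13 mice, with overlapping ranges (-1.28, SE 0.18, adjusted p = 2.50e-06). B cells had 0 HPGD UMIs of 761634 over 7 mice, which allows up to 3.94 CPM, at least 36.4-fold below the pooled level of T cells. The singlet pDC had 0 of 1010309 over 5 mice, at least 48.4-fold below that level and at least 4.54-fold below the pooled monocytes and macrophages. These levels were pooled over all mice of those classes rather than paired by mouse, and the folds leave out the spread between mice. In reaction 2, an HPGD UMI was found in 1.60% of all B cell barcodes, those without a single hashtag included, against 35.5% of T cells, at median depths of 6448 and 6876 UMIs.

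The T cells with a FOXP3 UMI, the marker of regulatory T cells, carried the higher HPGD. They ran from 75.9 over a median of 237 to 334 CPM in 12 mice, against a median of 84.5 in the other T cells, and all 12 mice were higher, although the ranges overlapped (log2 fold change 1.52, SE 0.13, adjusted p = 4.06e-10). Both PTGER4 and ALOX5AP moved the other way in all 12 mice. PTGER4 had a median of 41.1 against 115 CPM (-1.42, SE 0.16, adjusted p = 8.14e-08) and ALOX5AP one of 91.4 against 199 (-1.11, SE 0.10, adjusted p = 3.17e-09). Of the 4 members tested 3 passed, where 32.6% of 10204 genes did, and LTA4H gave -0.08 (SE 0.16, adjusted p = 0.759). The FOXP3+ cells were deeper, with a median of 6392 UMIs against 3162 in reaction 1 and 7191 against 6491 in reaction 2, and the part of depth was not tested.

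Monocytes and dendritic cells also differed in HPGD. Monocytes had a mean of 19.5 ± 10.4 CPM against 10.3 ± 6.53 in macrophages and were higher in 13 of 14 mice, with overlapping ranges (log2 fold change 1.08, SE 0.16, adjusted p = 1.77e-06). The CD1C-type dendritic cells, cDC2, ran from 80.6 over a median of 123 to 227 in 6 mice, above the highest monocyte value of 44.9 (2.33, SE 0.23, adjusted p = 2.28e-07). The cDC1 had 1 HPGD UMI in reaction 1 and 0 in reaction 2, where their floor was 3.45 CPM, and the mature dendritic cells had 1 and 2, with too few mice for a test of either class. In the order of means, T cells and cDC2 were neighbours that did not differ beyond the spread (paired difference 6.25 ± 107 CPM, n = 6 mice), whereas cDC2 and NK cells did (81.5 ± 48.3, higher in all 6).

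PTGER2 and PTGER4, the receptors for prostaglandin E2 that raise cyclic AMP, were distributed unlike each other. PTGER2 was low throughout, with its highest means at 28.3 ± 11.7 CPM in cDC2 (n = 6), 28.0 ± 5.14 in monocytes (n = 14), 24.7 ± 15.6 in mast cells (n = 8) and 21.3 ± 4.89 in NK cells (n = 14). These neighbours in the order did not differ beyond their spread. The 14 monocyte samples ran from 19.1 over a median of 27.7 to 39.5, against a median of 7.27 in macrophages, and all 14 were higher than the macrophages of the same mouse, with a slight overlap of the ranges (log2 fold change 1.81, SE 0.16, adjusted p = 3.65e-10). NK cells ran from 12.2 over 21.0 to 29.0 and T cells from 0 over 3.26 to 7.65, so every NK sample lay above every T sample (2.69, SE 0.32, adjusted p = 2.86e-07). No PTGER2 UMI was counted in the pDC of 5 mice or in the tumor cells of 6 mice. Against monocytes and macrophages pooled over all 14 mice, pDC were at least 4.95-fold and tumor cells at least 3.07-fold lower. These folds leave out the spread between mice.

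PTGER4 was found in every class. Its means fell from 142 ± 70.8 CPM in GLUT1 macrophages (n = 11) to 41.6 ± 25.1 in LYVE1 macrophages (n = 11) and 19.4 ± 25.2 in tumor cells (n = 6). No class differed from the next in that order beyond the spread of the paired differences. Neighbours in a sorted order are close by construction, so this does not show that the classes were alike. Monocytes ran from 47.7 over a median of 79.6 to 99.1, below the macrophages of the same mouse in all 14 mice (log2 fold change -0.38, SE 0.06, adjusted p = 2.02e-06). T cells lay below monocytes and macrophages in 11 of 13 mice (-0.70, SE 0.08, adjusted p = 1.34e-07), and tumor cells in all 6 (-3.02, SE 0.46, adjusted p = 7.81e-10). NK and T cells differed by 0.14 (SE 0.10, adjusted p = 0.273), which passed only with stricter gates (adjusted p = 0.0189). The cDC1 carried PTGER4 at 135 CPM in reaction 1 (95% exact Poisson interval 97.2 to 182) and 114 in reaction 2 (92.6 to 139), and the mature dendritic cells at 63.0 (40.3 to 93.7) and 61.9 (48.3 to 78.3), without a test. PTGER4 was lower in B than in T cells (-0.70, SE 0.28, adjusted p = 0.0436), a call lost without B0251 or B0253 of reaction 1 or B0251, B0255 or B0257 of reaction 2 (adjusted p up to 0.215). In pDC it was lower than in monocytes and macrophages in 4 of 5 mice (-0.65, SE 0.25, adjusted p = 0.0278), but not without B0254, B0255 or B0257 of reaction 2 (adjusted p up to 0.255).

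**Figure D4:**
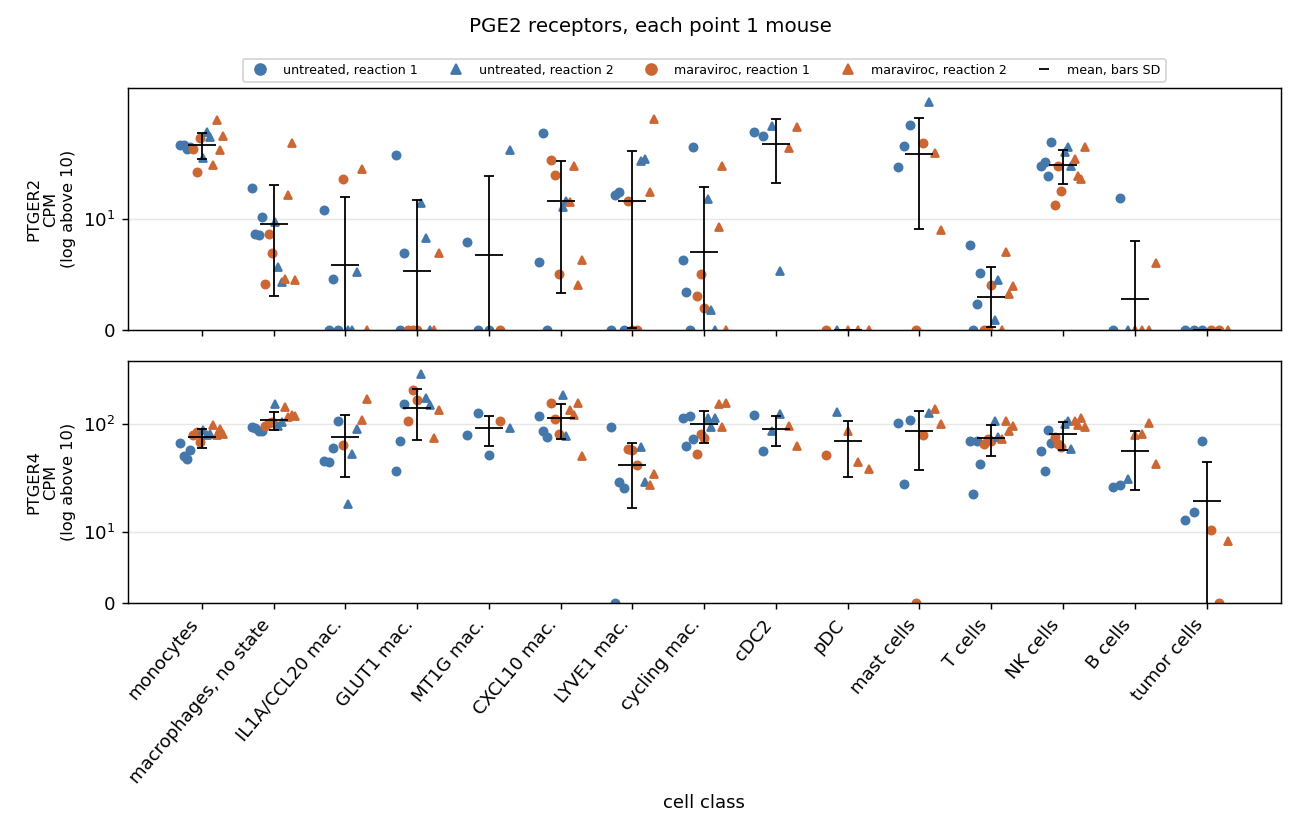
Levels of PTGER2 and PTGER4 in CPM by class, on an axis that is logarithmic above 10. Each point is a mouse with at least 10 cells of the class, coloured by treatment and shaped by reaction, with the mean and SD. PTGER2 has means of 21.3 in NK and 3.00 in T cells, while PTGER4 has means of 80.6 and 73.6 there.

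ALOX5, the 5-lipoxygenase, was high in mast cells, monocytes and B cells and near 0 in T and NK cells. Its means were 303 ± 136 CPM in mast cells (n = 8), 262 ± 26.9 in monocytes (n = 14) and 238 ± 76.6 in B cells (n = 7), and these neighbours did not differ beyond their spread. T cells were at 3.46 ± 2.78 (n = 13) and NK cells at 3.85 ± 4.16 (n = 14). The 7 B cell samples ran from 104 over a median of 243 to 360, and the T cells of the same mice reached at most 4.29 (log2 fold change 6.35, SE 0.30, adjusted p = 9.57e-22). After thinning to 2000 UMIs, 38.9% and 38.2% of B cells of that depth had an ALOX5 UMI in reactions 1 and 2 (43.5% and 70.4% of all B cells before thinning). For T cells the shares were 1.31% and 0.813% (2.58% and 2.54% of all T cells before thinning).

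Monocytes exceeded macrophages in ALOX5 in every mouse. They ran from 216 over a median of 265 to 306 CPM, against a median of 149 in macrophages, and the ranges overlapped only where the highest macrophage sample reached 229 (log2 fold change 0.93, SE 0.07, adjusted p = 1.03e-11). Among monocytes, those with an S100A12 UMI, an alarmin of classical monocytes, were higher in 13 of 14 mice, at a median of 283 against 227 (0.31, SE 0.06, adjusted p = 0.00107), and the call was lost in either reaction alone (adjusted p = 0.0684 and 0.0637). They were also the deeper cells, at a median of 4630 against 2622 UMIs in reaction 1 and 12785 against 11449 in reaction 2, and the part of depth was not tested. ALOX5AP was lower in 13 of 14 mice there (-0.48, SE 0.15, adjusted p = 0.0770) and passed without B0256 of reaction 2. With reaction 1 alone ALOX5AP gave -0.89 (adjusted p = 0.0123) and with reaction 2 alone -0.13 (adjusted p = 0.821). The cDC2 were lower than monocytes in 5 of 6 mice (-0.46, SE 0.14, adjusted p = 0.0232), a call lost without B0253 of reaction 1 or B0251, B0255 or B0256 of reaction 2 (adjusted p up to 0.0994). Mast cells were higher than monocytes and macrophages in 8 of 8 mice, yet ALOX5 did not pass there (0.37, SE 0.24, adjusted p = 0.260) except with reaction 2 alone (0.62, adjusted p = 0.0487).

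ALOX5AP, the partner that presents arachidonic acid to ALOX5, was highest in pDC, where ALOX5 itself was low. The 5 pDC samples stood at 1004 CPM in the maraviroc mouse B0257 of reaction 1, and in reaction 2 at 949 in the untreated B0252 and at 888, 1101 and 828 in the maraviroc mice B0254, B0255 and B0257. All lay above 198, the highest monocyte and macrophage value of the same 5 mice (log2 fold change 2.48, SE 0.16, adjusted p = 1.63e-18). ALOX5 in the same pDC ran from 14.8 over a median of 51.5 to 86.9, below every paired monocyte and macrophage value (-2.31, SE 0.26, adjusted p = 8.89e-11). After thinning to 2000 UMIs, 81.1% and 81.2% of pDC of that depth had an ALOX5AP UMI (86.0% and 99.1% of all pDC before thinning). For cDC2 the shares were 13% and 4.85% (25.7% and 17.5% of all cDC2 before thinning).

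In the other classes ALOX5AP ranged more narrowly. Mast cells came next, from 280 over a median of 507 to 690 CPM, above 207, the highest monocyte and macrophage value of the same 8 mice (log2 fold change 1.22, SE 0.23, adjusted p = 1.15e-05). Monocytes lay below the macrophages of the same mouse in all 14 mice, at a median of 83.9 against 192, with overlapping ranges (-0.95, SE 0.11, adjusted p = 9.21e-08). The cDC2 lay lower still in 6 of 6 mice, at a median of 12.9 against 75.5 in the monocytes of those mice (-1.54, SE 0.27, adjusted p = 0.000290). B cells were below T cells in 7 of 7 mice (-0.81, SE 0.23, adjusted p = 0.00446), a call lost with stricter gates (adjusted p = 0.150). T cells, whose mean of 154 ± 38.1 was close to that of monocytes and macrophages, 166 ± 61.3, were higher in 7 mice and lower in 6, while the fit after TMM scaling gave -0.33 (SE 0.13, adjusted p = 0.0276), a call lost without B0252, B0255 or B0256 of reaction 1 or B0252 or B0257 of reaction 2 (adjusted p up to 0.0961).

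LTA4H, which completes leukotriene B4, set monocytes apart from macrophages without overlap. Monocytes ran from 88.2 over a median of 143 to 202 CPM and macrophages from 23.6 over 39.5 to 76.5 (log2 fold change 1.96, SE 0.08, adjusted p = 5.34e-16). The cDC2 were at 136 ± 33.1 (n = 6), within the spread of monocytes, with a log2 fold change of -0.05 (SE 0.16, adjusted p = 0.876). Mast cells, high in ALOX5 and ALOX5AP, were lowest in LTA4H, at 0 to 20.5 with a median of 0 in 8 mice (4 UMIs in all), below every paired monocyte and macrophage value (-3.63, SE 0.55, adjusted p = 6.32e-08). Of these UMIs 3 came from B0257 of reaction 1, without which the log2 fold change was -5.26. With reaction 1 alone it was -2.66 (adjusted p = 0.000680), and the 3 mice of reaction 2 had 0 LTA4H UMIs in mast cells. Tumor cells carried LTA4H at 88.7 ± 41.5 (n = 6), and their difference from monocytes and macrophages was 0.07 (SE 0.33, adjusted p = 0.882). With reaction 1 alone it was 0.58 (adjusted p = 0.217), and reaction 2 had too few mice for a fit. ALOX5 (-4.31, SE 0.45, adjusted p = 6.09e-19) and ALOX5AP (-3.89, SE 0.40, adjusted p = 3.88e-19) were far lower in tumor cells. T cells were lower than monocytes and macrophages in 12 of 13 mice (-2.38, SE 0.15, adjusted p = 2.36e-12) and pDC in 5 of 5 (-1.58, SE 0.28, adjusted p = 5.83e-06).

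**Figure D5:**
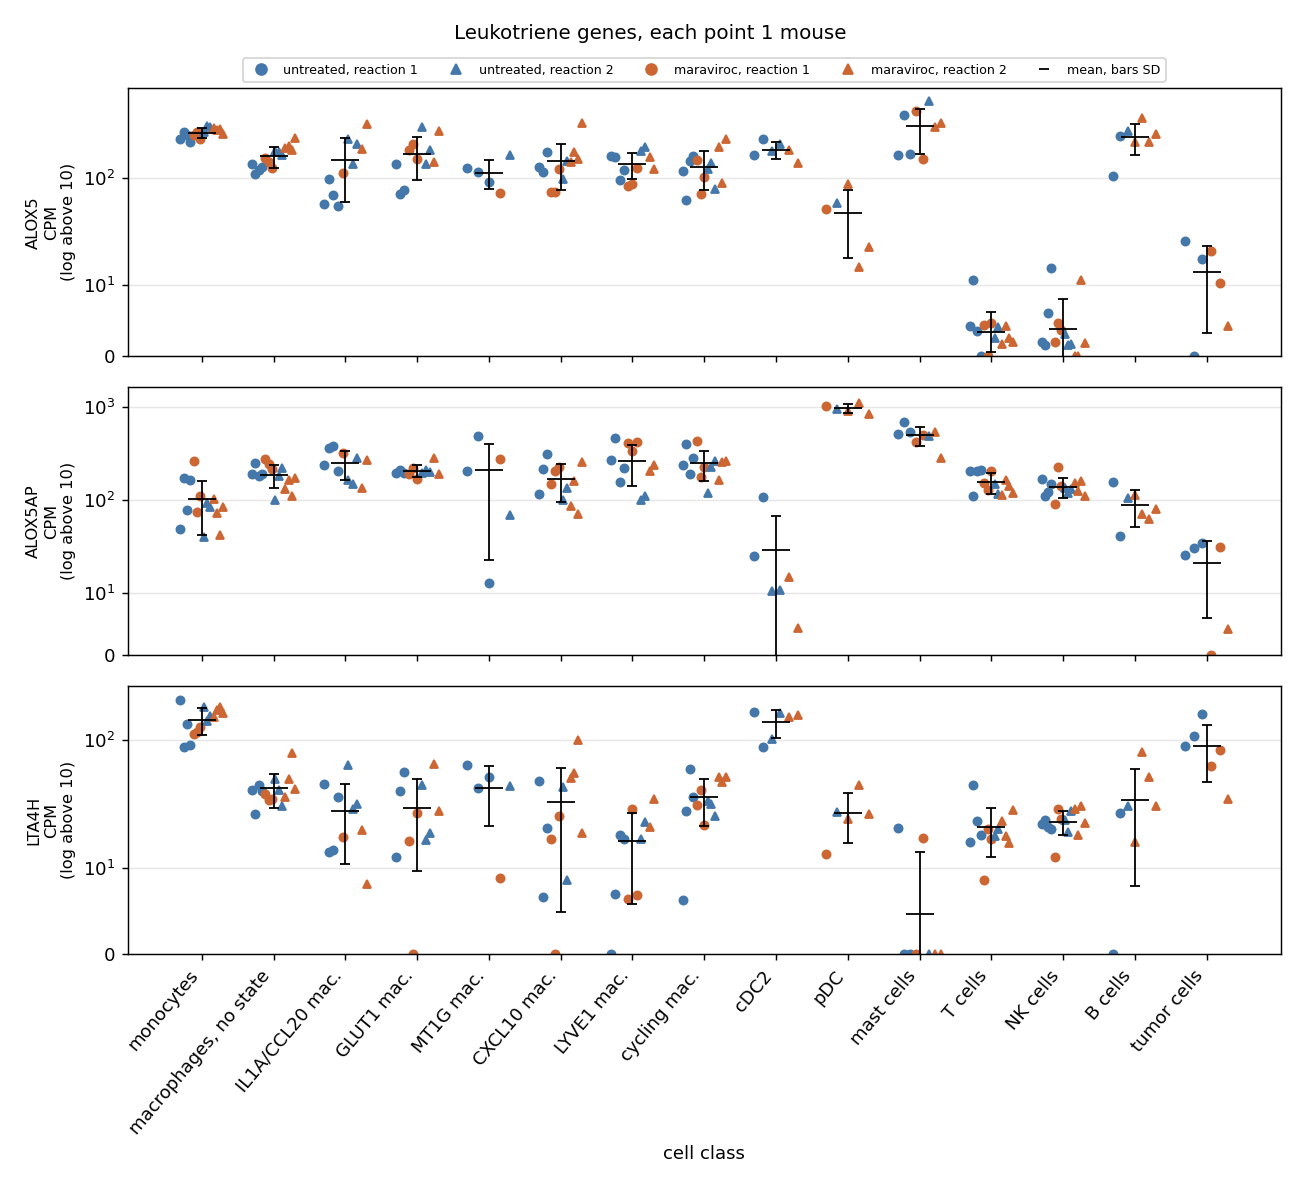
Levels of ALOX5, ALOX5AP and LTA4H in CPM by class, on an axis that is logarithmic above 10. Each point is a mouse with at least 10 cells of the class, coloured by treatment and shaped by reaction, with the mean and SD. Mast cells have means of 303 for ALOX5 and 494 for ALOX5AP but 4.70 for LTA4H, and monocytes the highest LTA4H mean of 142.

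Many genes passed between cell types, so the counts of members stand beside the share of all genes. Of 8 members tested, 7 passed between monocytes and macrophages, where 61.8% of 12919 genes passed, 8 between T cells and monocytes with macrophages (77.6% of 14600), 8 for pDC (44.7% of 12711), 7 for tumor cells (44.4% of 12460), 4 for mast cells (31.6% of 12164), 3 for cDC2 against monocytes (19% of 9461) and 1, ALOX5, for S100A12+ monocytes (4.39% of 9391). Between NK and T cells 3 of 6 passed (40% of 10620) and between B and T cells 4 of 5 (36.4% of 9418). The tumor gate of reaction 1 also held monocyte, macrophage and NK markers at 1323, 549 and 743 CPM, against 66.2, 85.6 and 22.8 in reaction 2, and their part in the levels there was not tested.

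The other 38 genes listed for the pathway were read in the same comparisons. Between monocytes and macrophages 17 of 22 tested passed, beside 61.8% of all genes, 7 of them higher in monocytes. The highest fold changes in monocytes were those of GGT5, which cleaves leukotriene C4 to D4, at 122 ± 28.9 CPM (log2 fold change 3.51, SE 0.15, adjusted p = 9.30e-16) and of the lipoxin receptor FPR2 at 40.4 ± 9.90 (2.83, SE 0.12, adjusted p = 1.12e-15). On the macrophage side stood HPGDS, which makes prostaglandin D2, at 104 ± 36.5 against 10.7 ± 5.76 (-3.05, SE 0.15, adjusted p = 8.64e-15), and LTC4S at 14.5 ± 4.09 against 2.32 ± 1.36 (-2.54, SE 0.20, adjusted p = 4.91e-11). In LYVE1 macrophages 7 of 21 passed, beside 17% of all genes, 6 of them higher, led by HPGDS at 409 ± 234 (1.95, SE 0.18, adjusted p = 9.90e-10) and LTC4S at 55.0 ± 43.4 (1.88, SE 0.29, adjusted p = 1.13e-05). This is the gate in which PTGS2, PTGER4 and LTA4H were lower.

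HPGDS, one of the prostaglandin D2 synthases, was highest in mast cells, and the other, PTGDS, in pDC. Of 22 pathway genes tested in mast cells 10 passed, beside 31.6% of all genes, 4 of them higher, among which HPGDS stood at 1004 ± 475 CPM (log2 fold change 3.11, SE 0.25, adjusted p = 4.71e-19) and LTC4S at 651 ± 226 (5.41, SE 0.27, adjusted p = 1.27e-31). PTGDS had 0 UMIs in mast cells and in the 5 pDC samples ran from 476 over a median of 1106 to 3371 (8.72, SE 0.45, adjusted p = 1.49e-22). In pDC 17 of 22 passed, beside 44.7% of all genes, 5 of them higher, among them the cysteinyl leukotriene receptor CYSLTR1 at 134 ± 11.8 (1.54, SE 0.21, adjusted p = 1.51e-08). FOXP3+ T cells had CYSLTR1 at 4.58 ± 4.28 against 66.9 ± 44.0 in the other T cells (-3.77, SE 0.21, adjusted p = 4.73e-13), 1 of 5 that passed of 11, beside 32.6% of all genes. Of 18 tested between NK and T cells 8 passed, beside 40% of all genes, 6 of them higher in NK cells, led by the prostaglandin D2 receptor PTGDR at 56.7 ± 20.7 against 3.63 ± 3.33 (4.31, SE 0.25, adjusted p = 2.39e-12).

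In the remaining comparisons the share of all genes called is given beside each count. T cells passed for 22 of 25 (all genes 77.6%), 2 of them higher than in monocytes and macrophages, PTGIS, the prostacyclin synthase, and PTGDR. B cells passed for 6 of 11 against T cells (all genes 36.4%, 2 higher), and tumor cells for 12 of 22 (all genes 44.4%, only the reductase AKR1C3 higher, on 13 UMIs). The cDC2 passed for 9 of 19 against monocytes (all genes 19%, 5 higher) and S100A12+ monocytes for 4 of 19 (all genes 4.39%, only FPR2 higher). Among macrophage states, 7 of 21 passed in cycling (all genes 31.5%, 2 higher), 4 of 20 in CXCL10 (13.6%, 1 higher), 4 of 20 in GLUT1 (21.6%, 0 higher), 2 of 20 in IL1A/CCL20 (4.79%, 1 higher) and 0 of 19 in MT1G macrophages (0.647%).

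The genes whose profiles over the 34 combinations of class and reaction were most like those of the members are given as a description, with Pearson's r of log2 levels and with cells of a reaction sharing a library and its depth. PTGS1 ran with ASAH1 (r = 0.928), PPARD (0.912) and the thromboxane synthase TBXAS1 (0.900), and PTGS2 with PLAUR (0.921), FAM20C (0.892) and THBD (0.876). For HPGD the nearest were AC096751.2 (0.887), UBXN10-AS1 (0.868) and FDX1 (0.857). PTGER2 was nearest to GAS7 (0.837), CLEC12A (0.835) and ACSL5 (0.797), and PTGER4 to TRPV2 (0.845), DOCK8 (0.838) and KLHL6 (0.83). ALOX5 ran with BTK (0.925), PPFIBP2 (0.885) and MOB3B (0.884), ALOX5AP with FMNL3 (0.873), ZNF331 (0.821) and CYSLTR1 (0.820), and LTA4H with MTMR11 (0.807), UBE2D1 (0.801) and GGT5 (0.778). PTGES was below 20 CPM in every class and is left out.

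Maraviroc was compared with no treatment in 7 against 7 mice, with the reaction as a term, since the study asked how the drug bore on the immune response to the tumor. In all myeloid cells together none of the 8 members tested passed. PTGS2 ran from 59.5 over a median of 80.1 to 141 CPM in untreated and from 52.8 over 76.4 to 99.7 in maraviroc mice (log2 fold change -0.20, SE 0.20). PTGER4 ran from 71.6 over 81.9 to 119 in untreated and from 89.2 over 99.1 to 118 in maraviroc mice (0.18, SE 0.08), and was the only member with an unadjusted p under 0.05. HPGD ran from 7.59 over 10.3 to 30.6 and from 6.09 over 14.1 to 38.2 (-0.10, SE 0.46). Over both reactions pooled, the untreated and maraviroc ranges overlapped for all 8 genes. Within reaction 1, the 3 maraviroc mice all lay above the 4 untreated ones for PTGS1 and for PTGER4, and within reaction 2 no member was separated. How many of all genes part in this way was not counted. Groups of this size can part by chance, so no treatment effect is read from it.

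The remaining log2 fold changes in myeloid cells were 0.10 (SE 0.07) for ALOX5, 0.06 (SE 0.23) for LTA4H, -0.01 (SE 0.21) for ALOX5AP, -0.03 (SE 0.25) for PTGER2 and -0.06 (SE 0.13) for PTGS1, each with an adjusted p of 0.9996. No gene of 13126 was called by edgeR (0%, 493 at an unadjusted p under 0.05), and DESeq2 called 1 gene that was not a member. Within reactions 1 and 2 the fold changes of LTA4H were -0.43 and 0.50, of PTGER2 -0.66 and 0.46, of HPGD -0.73 and 0.40, of PTGS1 0.28 and -0.38, of ALOX5AP 0.25 and -0.27 and of ALOX5 -0.02 and 0.21, so the sign turned between the reactions. PTGER4 gave 0.26 and 0.10, and PTGS2 -0.35 and -0.06. The test of the difference between reactions called 0 of 13633 genes by edgeR. The interaction was -0.65 (SE 0.20, adjusted p = 0.263) for PTGS1, 1.13 (SE 0.41, adjusted p = 0.297) for PTGER2 and 0.94 (SE 0.40, adjusted p = 0.340) for LTA4H. Each had an unadjusted p under 0.05, and how many of all genes did so was not counted.

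By cell type, maraviroc gave no call among the members either. In monocytes 0% of 9774 genes were called and in macrophages 0% of 12029, with 422 and 430 genes at an unadjusted p under 0.05. Of 8 members each, PTGER4 in monocytes (log2 fold change 0.24, SE 0.10) and ALOX5 in macrophages (0.21, SE 0.08) were among these. PTGER4 in monocytes and in macrophages lay higher in all 3 maraviroc than in all 4 untreated mice of reaction 1. ALOX5 in macrophages lay higher in all 4 maraviroc than in all 3 untreated mice of reaction 2. In the other reaction these ranges overlapped. Monocytes and macrophages make up most of the myeloid cells, so these PTGER4 values are not separate from those given above. How many of all genes part in this way was not counted, here or for the ranges below. In cDC2, with 4 untreated and 2 maraviroc mice, PTGS2 stood at 20.9 to 41.9 CPM untreated and at 40.0 and 108 with maraviroc (1.90, SE 0.57, adjusted p = 0.993; 0 of 5 members and 0% of 4603 genes called). It was the only member there with an unadjusted p under 0.05, beside 181 of all genes tested. PTGS1 in cDC2 stood at 26.9 to 39.7 CPM untreated and at 13.3 and 17.9 with maraviroc, without overlap, and was not among the 5 members tested. The PTGS2 ranges overlapped over both reactions. The 2 maraviroc mice were of reaction 2, and within that reaction alone the ranges of PTGS1 and of PTGS2 did not overlap. So few mice can part in this way by chance. Reaction 1 gave no maraviroc mouse for cDC2. In T cells (0 of 4 members, 0% of 10670 genes), NK cells (0 of 5, 0% of 7979) and B cells (0 of 3, 0.0276% of 3627) no member reached an unadjusted p under 0.05. PTGER4 in B cells ran from 26.0 to 30.7 CPM in 3 untreated and from 42.6 to 103 in 4 maraviroc mice, without overlap (1.24, SE 0.94, adjusted p = 0.999). However, these 4 maraviroc mice were all of reaction 2, while the untreated B0251 and B0253 were of reaction 1. The ranges therefore cannot tell treatment from reaction. DESeq2 called 0 members in any of these comparisons. The precision differed between genes, with standard errors in myeloid cells of 0.07 for ALOX5 and 0.46 for HPGD.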

How the data were processed

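The authors sequenced 10x 3′ libraries of sorted human CD45+ cells with hashtag antibodies in 2 reactions. Per the labels and methods they aligned and counted with Cell Ranger 9.0.1 on GRCh38 and worked in Seurat 5.1.0. The deposited values are raw UMI counts per gene and barcode. Barcodes were kept with more than 600 and up to 6000 genes and fewer than 1 in 8 UMIs mitochondrial, and mice were assigned from hashtag counts with HTODemux (Seurat 5.3.0, quantile 0.99), which also left out doublets between mice. Doublets within a mouse were not called. Classes were gated on marker UMIs per 10000 UMIs (at least 3), with limits set after the data had been seen. UMIs were summed per mouse and class and tested with edgeR 4.0.16 in R 4.3.3 (quasi-likelihood, TMM, filterByExpr, Benjamini-Hochberg, threshold 0.05), with the mouse as a term between classes and the reaction as a term between treatments. DESeq2 1.42.0 was an alternative. In a test on simulated counts, 85% of 200 genes given a log2 fold change of 1 were found both for monocytes against macrophages (9 false calls among 12919 genes) and for the treatment in myeloid cells (11 among 13126). Smaller changes were not simulated, and the members' treatment values in myeloid cells lay between -0.20 and 0.18.

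The 9 genes, the 38 other pathway genes and the tests were chosen with earlier results of these data known. Named were the 9 genes, those pathway genes that passed with the largest changes, and for each member the 3 genes with the highest Pearson r of log2 levels (plus 1) over classes with at least 20 cells, among genes reaching 20 CPM, sex-linked genes left out. The FOXP3 comparison, and that of pDC with monocytes and macrophages, were added after the data had been seen. Levels in CPM and shares of cells carry 95% exact intervals or a floor of 3 counts, where given, and these cover counting error only. Alternatives were stricter cell limits (over 1000 genes, under 7.5% mitochondrial UMIs), gates with 2 times the marker UMIs, hashtag quantile 0.95, no filter on low counts, DESeq2, each reaction alone and leaving out each mouse. Each mouse is taken as a replicate, and the mice share a reaction.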

Additional observations from a re-analysis of the deposited data

Results flagged for a closer look

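PTGS2 in all myeloid cells stood apart in an untreated mouse, B0252 of reaction 1, at 141 CPM against 59.5 to 86.3 in the other 6 untreated mice, a gap of 0.671 of the range. In the same mouse PTGS2 was at 152 in macrophages of no state and at 115 in monocytes. LTA4H in T cells stood apart in the same mouse, at 44.4 CPM against 16.0 to 23.4 in the other untreated mice, a gap of 0.740 of the range, but this value rests on 4 UMIs in 11 cells. Of 34 groups of mice examined these 2 stood apart, and chance alone gives about 1 in 20.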

How the results depend on the processing

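No called difference between classes changed direction under any alternative. Over member values, 668 kept their direction and their side of the threshold under the other settings, 41 lost and 13 gained a call and 22 that were not called changed sign. On leaving out a mouse these were 1105, 54, 7 and 18. Under maraviroc the count of members called stayed at 0 in every comparison under the alternatives run, while the sign of a member's value in all myeloid cells turned 10 times under other settings and 23 times on leaving out a mouse.

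The number of members called changed by more than 1.5 times as follows. For S100A12+ monocytes it went from 1 to 2 with stricter gates, with quantile 0.95 and without the filter on low counts, to 0 with reaction 2 alone, and to 1 to 2 on leaving out a mouse. For B against T cells it went from 4 to 2 with stricter gates. In IL1A/CCL20 macrophages it went from 2 to 1 with stricter cell limits, with quantile 0.95, without the filter and with reaction 2 alone, to 0 with reaction 1 alone, and to 1 to 2 on leaving out a mouse. In GLUT1 macrophages it went from 2 to 1 with stricter cell limits and quantile 0.95, to 0 without the filter, with DESeq2 and with either reaction alone, and to 0 to 2 on leaving out a mouse. In CXCL10 macrophages it went from 0 to 1 with stricter gates, with quantile 0.95 and without the filter, and to 0 to 1 on leaving out a mouse. In cycling macrophages it went from 4 to 1 with stricter gates and with reaction 1 alone and to 2 with reaction 2 alone. The cause was not tested. Smaller changes were the gain of PTGS2 between monocytes and macrophages without the filter, the gain of ALOX5 in mast cells with reaction 2 alone, the loss of PTGER4 in pDC with DESeq2, of HPGD in tumor cells with stricter cell limits, of ALOX5AP in T cells with stricter cell limits, quantile 0.95 and reaction 2 alone, and of PTGS2 between NK and T cells with stricter cell limits and reaction 1 alone. PTGER4 between B and T cells was also lost with stricter cell limits, quantile 0.95, DESeq2 and reaction 2 alone. In LYVE1 macrophages PTGS1 was gained without the filter, ALOX5AP was gained with reaction 1 alone and LTA4H was lost with reaction 2 alone.

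For each gene, the pooled level was checked only in the class with its highest mean. The limit was the SD over mice of the reaction or, with a single mouse, the 95% interval. PTGER2 in cDC2 of reaction 1 moved beyond it, from 31.0 CPM to 29.4 in singlets, 28.6 with stricter cell limits and 22.6 with stricter gates. That SD came from fewer than 3 mice. ALOX5AP in pDC moved with stricter gates, from 1021 to 1207 in reaction 1 and from 937 to 1265 in reaction 2. The comparisons of cDC1, mature dendritic cells and pDC with cDC2 were not run, since fewer than 3 mice had 10 cells of both. PTGES had few UMIs in every class, and HPGD and PTGER2 had 0 to 2 each in the singlet B cells, pDC and tumor cells. The floor of 3 counts lay at 0.147 CPM in T cells but at 3.94 in B cells and 4.79 in tumor cells.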
